A study of Mus musculus with 3 samples.

Results

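The EGF receptor system was described here through 9 genes of the 32285 measured, 6 ligand genes (*Areg*, *Ereg*, *Hbegf*, *Tgfa*, *Btc* and *Nrg1*) and 3 receptor genes (*Egfr*, *Erbb2* and *Erbb3*), which were chosen by name and all found by Ensembl ID. EGF family ligands are made as membrane-anchored precursors that are cut free by sheddases such as ADAM17, and they act on nearby cells by pairing ERBB receptor tyrosine kinases. Amphiregulin (*Areg*) and TGF-alpha (*Tgfa*) bind EGFR, while epiregulin (*Ereg*), HB-EGF (*Hbegf*) and betacellulin (*Btc*) bind EGFR and ERBB4. Neuregulin 1 (*Nrg1*) binds ERBB3 and ERBB4 and not EGFR, and ERBB2 has no known ligand and serves as the partner of the others. In skin the system is known for driving the movement and growth of keratinocytes over a wound and for the turnover of the hair follicle and epidermis.

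Single-cell RNA-seq was performed on wounded skin of C57BL/6J mice, described in the study as adult males, at 3, 7 and 14 days after injury, with 1 library per day. Wound tissue was pooled before enzymatic dissociation, the cells were not sorted, and the labels name no treatment and no altered gene. The study's methods describe full-thickness excisional wounds made with a biopsy punch, whereas the deposited design text calls the injury incisional. With 1 library a day no difference could be tested against the spread between animals, so every ratio below compares 2 libraries, and its interval covers counting error only.

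The libraries of Days 3, 7 and 14 held 5158, 22924 and 16611 barcodes, of which 4452, 21568 and 14472 passed the filters. After called doublets were removed, 4360, 19590 and 13510 cells were kept, with 35113030, 100477136 and 97265223 transcripts counted by unique molecular identifier (UMI). The median cell held 3512.5, 3219.5 and 5873.5 UMIs. The cells fell into 34 clusters, and markers of skin cell types were used to name them. Between 19 and 111 barcodes were shared by each pair of libraries. Fibroblast-like cells took 11.4%, 31.9% and 52.7% of the cells at Days 3, 7 and 14, and their median depth was 38382, 10084.5 and 9888.5 UMIs. Epithelial cell-like cells were nearly absent from the earlier libraries, with 1, 49 and 705 cells. Cluster 28, which held Schwann cell-like and melanocyte-like cells, had 0, 8 and 140 cells.

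In the mouse genome (GRCm38) 3 of the ligand genes, with the further family member *Epgn* (epigen), form a cluster of neighbouring protein-coding genes on chromosome 5 in the order *Epgn*, *Ereg*, *Areg*, *Btc*, which spans 375.531 kb. *Ereg* lies at chr5:91074622-91093646 and *Areg* at chr5:91139599-91148432, both on the plus strand, and *Btc* at chr5:91357261-91402994 on the minus strand. Among classes of at least 50 cells, *Areg* was highest in T cell-like cells at Days 7 and 14, and *Ereg* in fibroblast-like cells at Day 7 and epithelial cell-like cells at Day 14, as described below. The 150 bases before the RefSeq start site are shown for the 3 of these genes with a RefSeq promoter entry (GRCm38.p6). They lie at chr5:91027367-91027516 for *Epgn*, chr5:91139449-91139598 for *Areg* and, read from the minus strand, chr5:91402995-91403144 for *Btc*. Capitals mark the cAMP response element TGACGTCA and its shorter core TGACG, searched on both strands, so that CGTCA is the core on the opposite strand and each full element holds 2 overlapping cores.
Epgn: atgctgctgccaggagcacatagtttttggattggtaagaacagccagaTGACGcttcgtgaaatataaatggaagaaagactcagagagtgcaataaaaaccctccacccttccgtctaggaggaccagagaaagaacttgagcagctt
Areg: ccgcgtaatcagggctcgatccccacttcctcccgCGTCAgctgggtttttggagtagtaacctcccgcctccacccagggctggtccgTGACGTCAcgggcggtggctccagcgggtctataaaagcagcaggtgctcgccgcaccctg
Btc: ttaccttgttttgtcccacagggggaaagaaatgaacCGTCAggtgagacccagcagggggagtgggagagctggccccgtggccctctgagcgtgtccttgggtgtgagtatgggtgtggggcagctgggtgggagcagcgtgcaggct

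The *Areg* stretch held the full element, starting 61 bases before the start site, and a further core 115 bases before it. The *Epgn* and *Btc* stretches each held 1 core and no full element. Over all 32851 promoters of the reference (windows from 250 bases before to 50 after the start site), 1.79% held the full element and 20.8% the core. The AP-1 motif TGANTCA, held by 7.81% of those promoters, was in none of the member windows searched (5 of the 9 members had an entry). These matches describe the sequence and do not show that a factor binds there.

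Over all cells, *Areg* was at 28.5, 13.9 and 25.02 UMIs per 1000000 UMIs (counts per 1000000, CPM) in the libraries of Days 3, 7 and 14. *Ereg* was at 78.7, 44.0 and 10.5 CPM, and *Nrg1* at 65.6, 19.7 and 5.46 CPM. *Ereg* and *Nrg1* were thus lower in each later library, whereas *Areg* was lowest in the middle one. *Hbegf* was at 23.9, 20.8 and 47.1 CPM, *Tgfa* at 0.313, 0.657 and 1.06 CPM, and *Btc* at 0.598, 0.328 and 3.40 CPM, so that these 3 ligands had their highest level in the Day 14 library. Among the receptors, *Egfr* was at 71.7, 121 and 116 CPM, *Erbb2* at 5.90, 6.44 and 7.27 CPM, and *Erbb3*, the receptor that binds neuregulins but has little kinase activity of its own, at 0.826, 1.30 and 6.51 CPM. In sums over all cells, fewer cells of a class and less RNA per cell cannot be told apart, and the class make-up differed between the libraries as given above.

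A gene was counted as past the fold when its CPM differed at least 2-fold between 2 libraries and the 95% interval of the ratio left out 1, among genes with at least 50 UMIs over both libraries. From Day 3 to Day 7, 3 of the 9 members were past the fold over all cells, beside 18.2% of the 14416 genes assessed. *Nrg1* (log2 ratio of -1.74, 95% interval -1.83 to -1.65) and *Areg* (-1.04, -1.16 to -0.92) were lower in the Day 7 library, and *Tgfa* (1.07, 0.14 to 2.14) was higher. In the later comparison, Day 14 to Day 7, 5 of 9 were past it, beside 17.9% of 15529 genes. *Btc* (3.37, 2.85 to 3.94), *Erbb3* (2.32, 2.05 to 2.60) and *Hbegf* (1.18, 1.10 to 1.25) were higher in the Day 14 library, and *Ereg* (-2.06, -2.16 to -1.96) and *Nrg1* (-1.85, -1.99 to -1.71) were lower. The median log2 ratio of the members was -0.20 in the earlier comparison and 0.69 in the later one, against -0.09 and -0.12 over all genes assessed.

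Part of the Day 14 difference moved with the epithelial cell-like cells and cluster 28. When both were left out of the sum, an alternative chosen after the values had been seen, *Erbb3* had a log2 ratio of Day 14 to Day 7 of 0.18 (-0.25 to 0.61), *Hbegf* of 0.73 and *Btc* of 1.10 (0.44 to 1.78), and 3 members in place of 5 were past the fold. *Ereg* (-2.49) and *Nrg1* (-1.92) were at least as low without these cells as with them. In the earlier comparison *Tgfa* had a log2 ratio of 0.58 (-0.56 to 1.90) without them, so its place past the fold rested on them.

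**Figure D1:**
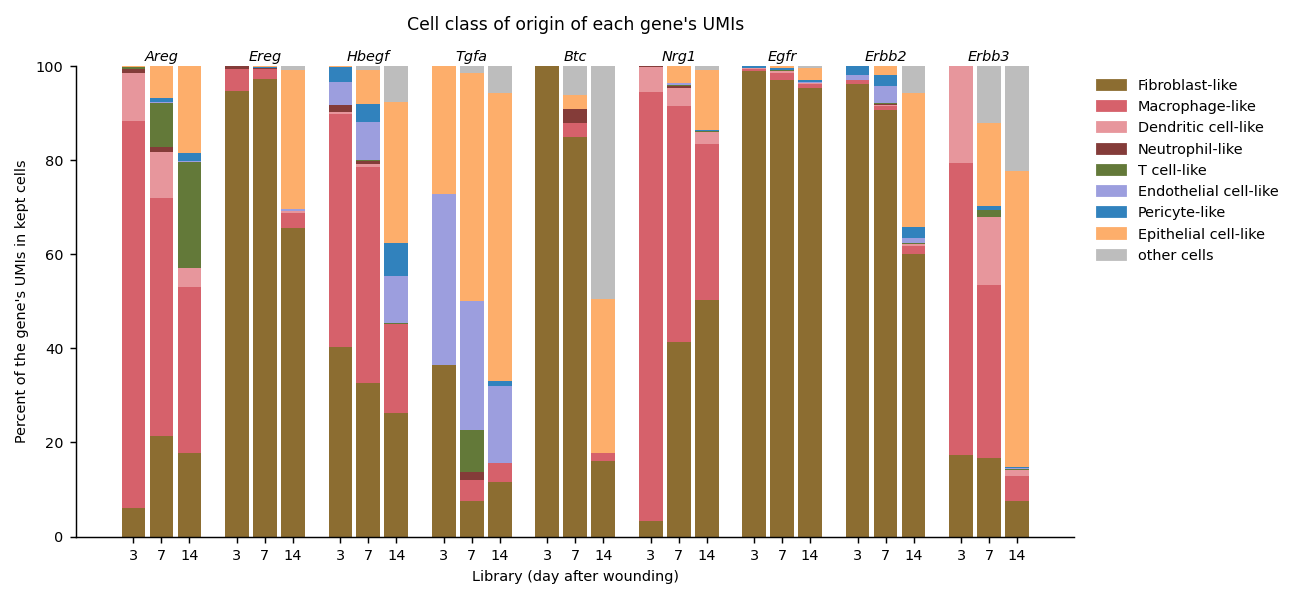
Percent of each gene's UMIs that came from each cell class (stacked bars), for the libraries of Days 3, 7 and 14. *Egfr* UMIs came almost wholly from fibroblast-like cells (98.97%, 97.1% and 95.3%). Those of *Nrg1* came mostly from macrophage-like cells at Day 3 (91.3%), and 50.3% came from fibroblast-like cells at Day 14. Fibroblast-like cells held 56.0%, 63.9% and 73.0% of all UMIs, so at Day 14 their part of *Nrg1* was below that base. Epithelial cell-like cells and other cells (cluster 28 among them) appear in the Day 14 bars. Some earlier bars also hold epithelial cell-like cells, such as *Tgfa* at Day 7 (32 of 66 UMIs).

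*Areg*, a low-affinity EGFR ligand that immune cells and keratinocytes can make, had most of its UMIs in macrophage-like cells at Day 3 (82.2%), and a smaller part there at Day 7 (50.6%) and Day 14 (35.3%). In macrophage-like cells it was at 67.4 CPM (62.9 to 72.2), 26.1 CPM (24.2 to 28.1) and 69.2 CPM (64.6 to 74.0), from 821, 704 and 859 UMIs. The Day 7 library was therefore the low one, with a log2 ratio to Day 3 of -1.37 (-1.52 to -1.22), and the interval of the Day 14 library overlapped that of Day 3 (Day 14 to Day 7, 1.41, 1.26 to 1.55). The summed level of 11 immediate-early genes, which respond to tissue dissociation as well as to signals in the tissue, was also lowest at Day 7 in these cells, at 13538 CPM at Day 3, 9714 CPM at Day 7 and 11529 CPM at Day 14, and its part in the *Areg* ratios was not tested. Few cells carried the *Areg* UMIs: 177 of 2722 macrophage-like cells at Day 3, 282 of 9571 at Day 7 and 194 of 3229 at Day 14. Dendritic cell-like cells had 65.2, 37.8 and 41.5 CPM, and their interval overlapped that of macrophage-like cells at Day 3, where 10 of their 231 cells held 94.2% of the 103 UMIs and 1 cell 30.1%.

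In neither of the 2 macrophage-like clusters with enough cells and UMIs at Days 3 and 7 was *Areg* lower in the Day 7 library. In cluster 2, led by *Arg1* and *Chil3*, which held 2242 of the macrophage-like cells of Day 3, *Areg* was at 74.4 CPM at Day 3 and 110 CPM at Day 7 (log2 ratio of 0.56, 0.29 to 0.82). In cluster 1, led by *Cd36*, *Arg1* and *Mmp12*, it was at 11.4 and 20.2 CPM (0.82, -0.09 to 1.91). The sign was thus opposite to that of the class as a whole, though in cluster 1 not beyond counting error. Different clusters held most of its cells in each library, namely cluster 2 at Day 3, clusters 1, 3 and 5 at Day 7, and clusters 4, 5 and 18 at Day 14. In the Day 14 library *Areg* was higher than in the Day 7 library in cluster 4 (*Ccl8*, *Il10*; 34.5 and 85.7 CPM) and cluster 5 (*Ccl8*, *Cd163*; 8.71 and 21.0 CPM), and nearly level in cluster 18 (*Retnla*, *Lyz1*; 96.5 and 103 CPM, log2 ratio of 0.09, -0.22 to 0.40).

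**Figure D2:**
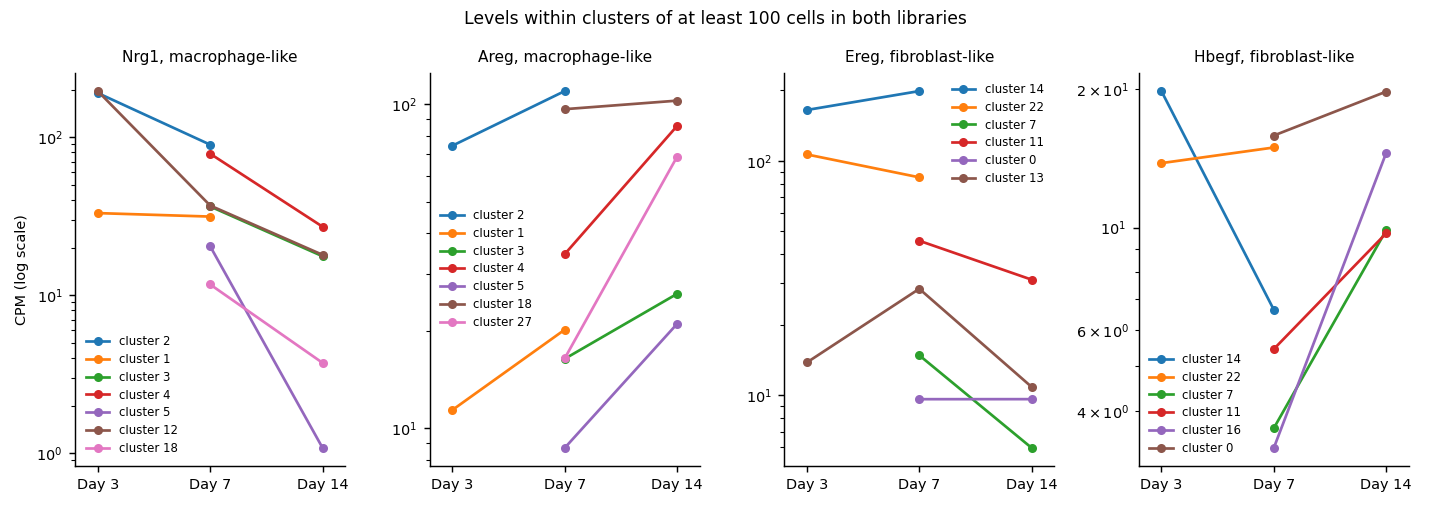
Level (CPM, log scale) of 4 ligand genes by library within single clusters, macrophage-like for *Nrg1* and *Areg* and fibroblast-like for *Ereg* and *Hbegf*, for clusters with at least 100 cells in both libraries joined by a line and at least 20 UMIs of the gene over them. *Nrg1* was lower in the later library in each macrophage-like cluster drawn (by less than counting error in cluster 1 at Day 7 and cluster 12 at Day 14), while the *Areg* points are higher in the later library in each cluster drawn (by less than counting error in clusters 1 and 18), unlike the macrophage-like class as a whole from Day 3 to Day 7.

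The highest *Areg* level among the classes of at least 50 cells was that of T cell-like cells, a class that also held NK cell-like cells, with 190 CPM (159 to 225) at Day 7 and 817 CPM (751 to 888) at Day 14, and these intervals stood apart from those of every other class of that size. The 49 epithelial cell-like cells of Day 7 were at 234 CPM (190 to 286), from 96 UMIs in 11 cells, and with doublets kept or each library clustered alone epithelial cell-like cells were the highest class of that library (189 and 228 CPM). With each cell thinned to 500 UMIs, 4.74% of T cell-like cells at Day 7 and 16.1% at Day 14 had an *Areg* UMI (12.1% and 27.4% unthinned; median depths 1419.5 and 1805 UMIs), beside 0 of 237 endothelial cell-like cells of the Day 7 library (3 counts would give 1.27%, which was the unthinned share; median depth 6288 UMIs). A pair of small groups held most of the class's Day 14 UMIs. Gamma-delta T cell-like cells, the lymphocytes that populate mouse epidermis, were at 2333 CPM at Day 14, where 67 cells (0.496% of the library) held 13.8% of all *Areg* UMIs and 65.7% of them had at least 1 (335 UMIs of the 553 in the class). Type 2 innate lymphoid cell-like cells, led by *Il5*, *Il13* and *Csf2*, were at 4593 CPM in 16 cells at Day 14 (150 UMIs) and 1447 CPM in 5 cells at Day 7. Regulatory T cell-like cells did not differ beyond counting error between these libraries, at 326 CPM (247 to 422) and 306 CPM (196 to 455). NK cell-like cells were at 5.15 CPM (0.130 to 28.7) at Day 7 and 67.7 CPM (32.5 to 125) at Day 14, from 1 and 10 UMIs, and the unnamed sub-cluster led by *Cd40lg* was at 44.8 CPM (14.5 to 104) and 158 CPM (97.5 to 241), from 5 and 21 UMIs. The unnamed sub-cluster led by the proliferation gene *Mki67* was lower at Day 14, at 525 CPM (375 to 714) in 19 cells of Day 7 and 88.4 CPM (10.7 to 319) in 4 cells of Day 14, from 40 and 2 UMIs.

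The log2 ratio of *Areg* from Day 7 to Day 14 in the whole T cell-like class was 2.11 (1.83 to 2.39). Without the gamma-delta T cell-like cells, of which the Day 7 library had 1, it was 1.22 (0.89 to 1.55), and without the type 2 innate lymphoid cell-like cells as well it was -0.20 (-0.66 to 0.25), from 157 to 136 CPM, over sub-clusters that were higher and lower at Day 14. In fibroblast-like cells *Areg* was far lower, at 3.103, 4.62 and 6.07 CPM, with a log2 ratio of 0.58 (0.17 to 1.00) from Day 3 to Day 7, but 41.0% of the Day 3 UMIs and 23.9% of the Day 14 UMIs lay in 1 cell each. Epithelial cell-like cells had 95.7 CPM (87.1 to 105) at Day 14.

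*Ereg*, an EGFR and ERBB4 ligand known from inflammation, was above all a transcript of fibroblast-like cells at Days 3 and 7. They held 94.6%, 97.2% and 65.5% of its UMIs, beside 56.0%, 63.9% and 73.0% of all UMIs. At Day 14 their part of *Ereg* was thus below their part of all UMIs. The *Ereg* level in fibroblast-like cells was 133 CPM (128 to 138) at Day 3, 66.9 CPM (64.9 to 69.0) at Day 7 and 9.44 CPM (8.74 to 10.2) at Day 14. Its log2 ratios between successive libraries were -0.99 (-1.06 to -0.92) and -2.83 (-2.94 to -2.71). At Days 3 and 7 no other class of at least 50 cells had an interval that reached that of fibroblast-like cells. The transcript was concentrated in few cells. At Day 3, 2617 UMIs lay in 102 of 497 fibroblast-like cells (25.7 per cell with a UMI), beside 4299 in 598 of 6250 at Day 7 (7.19 per cell) and 671 in 152 of 7126 at Day 14 (4.41 per cell). Such counts per cell grow with depth, and the median fibroblast-like cell held 38382, 10084.5 and 9888.5 UMIs in the 3 libraries. The 10 highest cells held 46.7% of the UMIs at Day 3 and 49.8% at Day 14. Thinned to 500 UMIs, 5.43%, 2.06% and 0.267% of fibroblast-like cells had an *Ereg* UMI (20.5%, 9.57% and 2.13% unthinned), beside 0 of 380 T cell-like cells of the Day 7 library (3 counts would give 0.789%; median depth 1419.5 UMIs against 10084.5 in fibroblast-like cells).

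The fibroblast-like cells of the 3 days fell into different clusters, and *Ereg* differed strongly between them. Over all libraries it was at 180 CPM in cluster 14 (led by *Saa3*, *Cxcl5* and *Prg4*), 96.1 CPM in cluster 22 (*Cxcl5*, *Timp1*) and 80.9 CPM in cluster 8 (*Postn*, *Lrrc15*), against 11.2 CPM in cluster 7 (*Pi16*) and 9.61 CPM in cluster 0 (*Cilp*, *Eln*), which held 3692 of the 7126 fibroblast-like cells of Day 14. Within cluster 14 the level was 165 CPM at Day 3 and 198 CPM at Day 7 (log2 ratio of 0.27, 0.17 to 0.37), opposite in sign to the class. In cluster 22 it was lower at Day 7, with 107 and 85.1 CPM (-0.32, -0.48 to -0.17), and within cluster 0 it was 9.62 CPM at both Day 7 and Day 14. Clusters 7 and 11, which both hold *Pi16* among their leading genes, were lower at Day 14, with 14.8 and 5.96 CPM in the former and 45.6 and 31.1 CPM in the latter.

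At Day 14 the highest *Ereg* level among the classes was in epithelial cell-like cells (64.7 CPM, 57.7 to 72.5), and it was 40.8 CPM with each library clustered alone. Only 27 of the 705 cells had a UMI, and 10 cells held 85.1% of the UMIs and 1 cell 25.1%. Of these 303 UMIs, 260 came from the sub-cluster led by *Lce1a1* and *Lor*, genes of the cornified envelope. Its 51 cells, 0.377% of the library, held 25.4% of all *Ereg* UMIs of that day. Over all libraries basal keratinocyte-like cells had no *Ereg* UMI, and suprabasal keratinocyte-like cells were at 3.73 CPM. In macrophage-like cells *Ereg* was at 10.6, 3.37 and 2.74 CPM, and 1 cell held 67.6% of the UMIs at Day 14. Within cluster 2, which held 2242 of the 2722 macrophage-like cells of Day 3, it was at 11.1 and 10.5 CPM at Days 3 and 7 (log2 ratio of -0.09, -1.04 to 0.74), and within cluster 1 at 11.4 and 4.46 CPM (-1.35, -2.37 to -0.20).

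*Hbegf*, which lies at chr18:36504927-36515805 on the minus strand, encodes a heparin-binding EGFR ligand known for its part in keratinocyte migration. At Day 14 its UMIs were spread over many classes: fibroblast-like cells held 26.2% of them, epithelial cell-like cells 29.8%, macrophage-like cells 18.9% and endothelial cell-like cells 9.91%. Endothelial cell-like cells had 89.6 CPM (76.5 to 104) at Day 7 and 326 CPM (297 to 357) at Day 14, a log2 ratio of 1.86 (1.60 to 2.13). Pericyte-like cells had 66.1 CPM (52.5 to 82.2) and 189 CPM (169 to 210), a ratio of 1.51 (1.16 to 1.88). At Day 3, 12 endothelial cell-like cells were at 206 CPM (42 UMIs) and 8 pericyte-like cells at 102 CPM (27 UMIs). The Day 14 level was higher than that of Day 7 in both classes of the vessel wall. In cluster 25, the larger endothelial cluster (*Selp*, *Fabp4*), this was seen within 1 cluster, at 118 and 477 CPM (2.01). The summed level of the immediate-early genes was also higher at Day 14 in both classes, at 6542 and 11720 CPM in endothelial cell-like cells and 8582 and 12831 CPM in pericyte-like cells, and its part in the *Hbegf* ratios was not tested.

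Thinned to 500 UMIs, 3.80% of endothelial cell-like cells at Day 7 and 14.2% at Day 14 had an *Hbegf* UMI (28.3% and 49.4% unthinned; median depths 6288 and 3847 UMIs), beside 0.0844% of dendritic cell-like cells at Day 7 (median depth 2988 UMIs), a class with little *Hbegf*. In macrophage-like cells *Hbegf* was at 34.1 CPM (30.9 to 37.6), 35.5 CPM (33.3 to 37.8) and 69.6 CPM (65.0 to 74.4), so the earlier libraries did not differ beyond counting error (log2 ratio of 0.06, -0.11 to 0.23) and the Day 14 library was higher (0.97, 0.84 to 1.10). This was not shared by all its clusters, since cluster 3 (*Cx3cr1*) had 7.59 and 42.0 CPM at Days 7 and 14 while cluster 4 had 116 and 105 CPM (log2 ratio of -0.14, -0.35 to 0.07). From Day 3 to Day 7 cluster 1 was lower, with 51.3 and 23.9 CPM (-1.10, -1.57 to -0.61). Clusters 2 (0.36, -0.08 to 0.78) and 12 (0.73, -0.93 to 3.07) did not differ beyond counting error. In fibroblast-like cells the *Hbegf* level was 17.2, 10.6 and 16.9 CPM, and cluster 14 had 19.8 CPM at Day 3 and 6.63 CPM at Day 7. Cluster 22 did not differ beyond counting error between these days, with 13.8 and 14.9 CPM (log2 ratio of 0.11, -0.29 to 0.51).

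Epithelial cell-like cells had 292 CPM (277 to 308) of *Hbegf* at Day 14, an interval that overlapped that of endothelial cell-like cells, and 360 of 705 cells had at least 1 UMI. The 49 epithelial cell-like cells of Day 7 were at 369 CPM, from 151 UMIs in 24 cells, of which 1 held 29.1%. Over all libraries both named keratinocyte groups carried *Hbegf*, with 213 CPM in basal and 309 CPM in suprabasal keratinocyte-like cells. The highest epithelial levels over all libraries were in the sub-cluster led by the follicle genes *Lhx2* and *Lgr5* (502 CPM) and in that led by *Mmp13*, *Mmp9* and the wound keratins *Krt6a* and *Krt6b* (490 CPM), and the lipid-synthesis sub-cluster (*Scd1*, *Elovl6*) had 43.0 CPM. Over all libraries Schwann cell-like cells were at 533 CPM and melanocyte-like cells at 374 CPM.

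**Figure D3:**
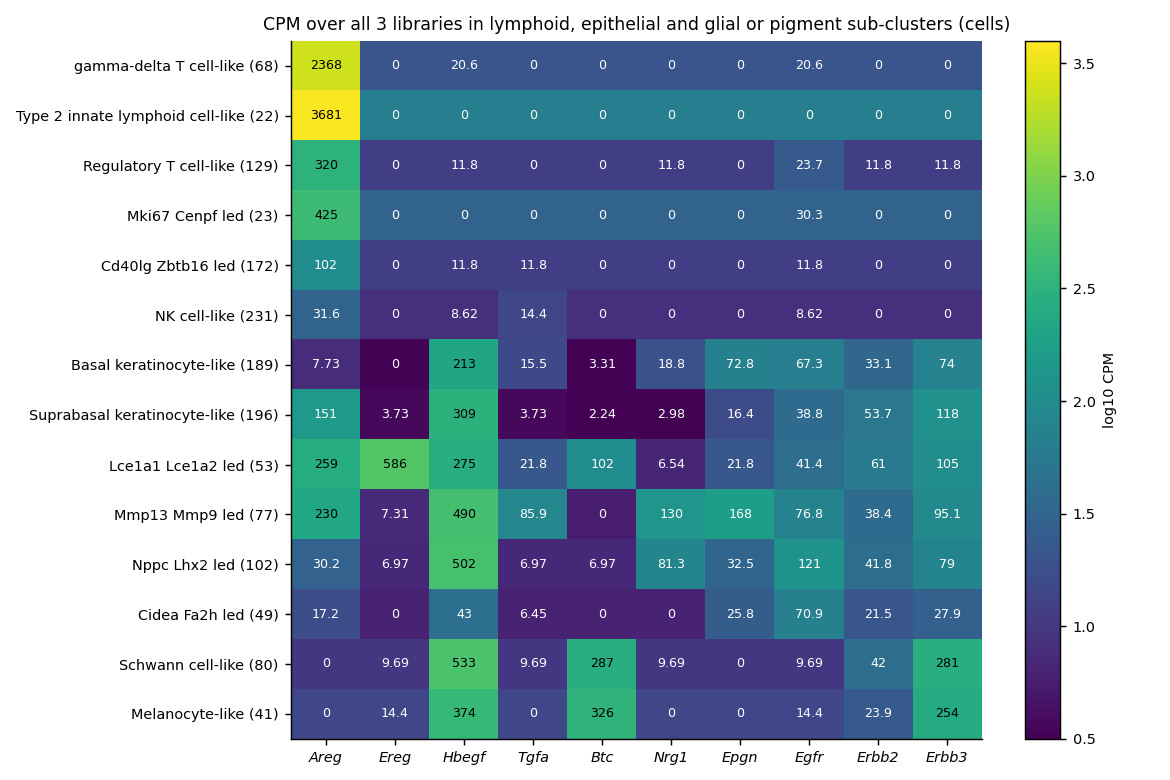
CPM over all 3 libraries (number in each cell of the grid, colour on a log10 scale, cells without a UMI coloured at the limit that 3 counts would give or the end of the scale) of the 9 members and *Epgn* in sub-clusters of the lymphoid, epithelial and glial or pigment cells, with cell numbers in parentheses. *Areg* stands out in gamma-delta T cell-like (2368 CPM) and type 2 innate lymphoid cell-like cells (3681 CPM), *Ereg* in the *Lce1a1*-led sub-cluster (586 CPM), and *Btc* and *Erbb3* in Schwann cell-like and melanocyte-like cells.

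*Tgfa* (chr6:86195223-86275719), an EGFR ligand of epithelia, was sparse, with 11, 66 and 103 UMIs in the 3 libraries. Epithelial cell-like cells held 48.5% of these at Day 7, though they were only 49 cells, and 61.2% at Day 14, and endothelial cell-like cells held 27.3% and 16.5%. At Day 14 the level was 13.5 CPM (10.3 to 17.2) in epithelial cell-like cells and 12.2 CPM (7.11 to 19.5) in endothelial cell-like cells, which counting error did not tell apart. The sub-cluster led by *Mmp13* and *Mmp9*, with 77 cells, held 47 of the 180 UMIs, and was at 85.9 CPM over all libraries. In T cell-like cells 6 UMIs were found at Day 7, of which 5 lay in NK cell-like cells, and none at Day 14.

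*Btc*, known from the hair follicle and sebaceous gland, had 21, 33 and 331 UMIs. At Days 3 and 7 most came from fibroblast-like cells (21 and 28 UMIs), where the level stayed near 1 CPM or lower in all libraries (1.07, 0.436 and 0.746 CPM). At Day 14, cluster 28 held 164 UMIs (272 CPM, 232 to 316) and epithelial cell-like cells 108 UMIs (23.1 CPM, 18.9 to 27.9). Within cluster 28, over all libraries, the Schwann cell-like cells were at 287 CPM (46.2% of 80 cells with a UMI) and the melanocyte-like cells at 326 CPM (31.7% of 41 cells). With each library clustered alone the epithelial level was 0.888 CPM. The epithelial value rested on few cells, since 1 cell held 51.9% of the UMIs and 11 cells held all of them, and that cell belonged to a sub-cluster led by the fibroblast genes *Dcn* and *Col1a2*.

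*Nrg1*, which lies at chr8:31814551-32884029 on the minus strand and encodes the ERBB3 and ERBB4 ligand known from nerve and heart, was a transcript of macrophage-like cells at Day 3. Its level in them was 173 CPM (165 to 180) at Day 3, 36.6 CPM (34.4 to 38.996) at Day 7 and 14.2 CPM (12.2 to 16.4) at Day 14. These levels came from 2104, 989 and 176 UMIs in 659 of 2722, 663 of 9571 and 115 of 3229 cells. The log2 ratios were -2.24 (-2.35 to -2.13) and -1.37 (-1.61 to -1.14). With each library clustered alone the Day 3 level was 103 CPM and the earlier ratio -1.47 (-1.61 to -1.34). Dendritic cell-like cells were also lower in each later library, at 74.7, 20.7 and 5.99 CPM. At Day 3, 10 of them held 73.7% of the *Nrg1* UMIs, and 146 of the 231 cells lay in a sub-cluster led by *Cxcl10* and *Rsad2* that had 13 and 1 cells in the later libraries. Within cluster 10 of this class *Nrg1* was at 80.5, 12.02 and 4.32 CPM. Thinned to 500 UMIs, 6.14%, 1.90% and 0.929% of macrophage-like cells had an *Nrg1* UMI (24.2%, 6.93% and 3.56% unthinned; median depths 4054.5, 2538 and 3542 UMIs), beside 0.241% of neutrophil-like cells at Day 7 (median depth 712 UMIs).

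The lower *Nrg1* level was also seen within macrophage-like clusters. In cluster 2, where *Nrg1* was at 179 CPM over all libraries, it was at 190 CPM at Day 3 and 89.6 CPM at Day 7 (log2 ratio of -1.09), and in cluster 12 at 196 and 36.9 CPM (-2.41). From Day 7 to Day 14 it was lower in clusters 3 (36.4 and 17.6 CPM), 4 (78.5 and 27.1 CPM), 5 (20.4 and 1.08 CPM) and 18 (11.7 and 3.72 CPM). Counting error did not tell the libraries apart in cluster 1, at 33.0 CPM at Day 3 and 31.4 CPM at Day 7 (-0.07, -0.62 to 0.53), or in cluster 12 between Day 7 and Day 14 (36.9 and 17.98 CPM, -1.04, -3.00 to 0.47).

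Fibroblast-like cells went the other way from Day 3 to Day 7, with 3.82 CPM (3.00 to 4.78), 12.7 CPM (11.9 to 13.6) and 3.76 CPM (3.32 to 4.24) in the 3 libraries, and log2 ratios of 1.74 (1.39 to 2.10) and -1.76 (-1.96 to -1.56). The Day 7 level stood apart from both others and was carried by 559 of 6250 cells. Within clusters 14 and 22, which held most fibroblast-like cells of Day 3, *Nrg1* was at 3.65 and 13.1 CPM (1.85) and at 4.10 and 19.4 CPM (2.24) at Days 3 and 7, and over all libraries the highest fibroblast-like cluster was cluster 17 (*Prss35*, *Tnn*) with 29.6 CPM. Clusters 17 and 8 (the latter at 16.3 CPM) had 714 and 1550 cells at Day 7 but 92 and 39 at Day 14. From Day 7 to Day 14 *Nrg1* did not differ beyond counting error within cluster 0 (3.96 and 4.38 CPM, 0.15, -0.93 to 1.48). The same held for cluster 16 (3.15 and 1.45 CPM, -1.12, -4.27 to 0.95). The *Nrg1* level in fibroblast-like cells was 2.21%, 34.7% and 26.5% of that in macrophage-like cells, while the summed level of 10 macrophage markers was 0.880%, 1.73% and 0.518% of that in macrophage-like cells. In epithelial cell-like cells *Nrg1* was at 14.3 CPM at Day 14, and in the *Mmp13*-led sub-cluster it was at 373 CPM in 23 cells of Day 7 (67 UMIs).

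**Figure D4:**
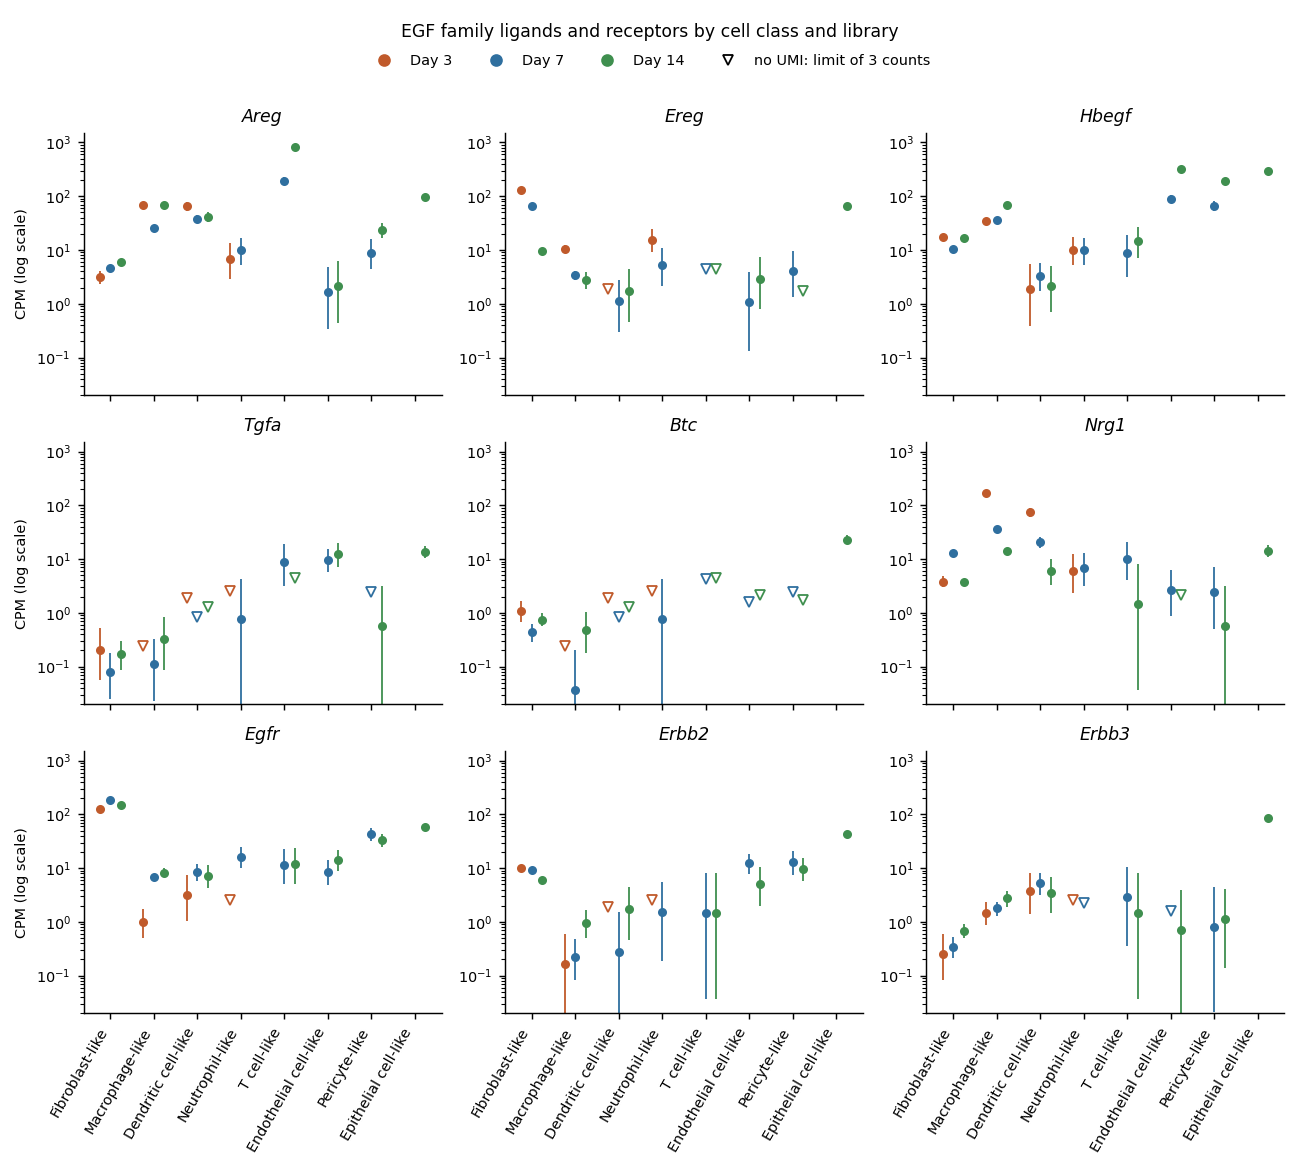
Level (CPM, log scale) of each gene by cell class and library, for classes with at least 50 cells in the library; bars are exact Poisson 95% intervals and open triangles mark classes without a UMI at the level that 3 counts would give. *Nrg1* steps down from Day 3 to Day 14 in macrophage-like and dendritic cell-like cells, *Ereg* in fibroblast-like cells, and *Egfr* is highest in fibroblast-like cells in each library.

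*Egfr* (chr11:16752203-16918158, plus strand), the receptor of most of these ligands, was highest in fibroblast-like cells in every library, at 127 CPM (122 to 132), 184 CPM (181 to 187) and 151 CPM (148 to 154), from 2490, 11814 and 10730 UMIs. On the log2 scale the Day 7 library was higher than the Day 3 library by 0.54 (0.48 to 0.60). The ratio between the later libraries was -0.28 (-0.32 to -0.25), and neither reached the fold. The receptor was widespread in these cells, with a UMI in 372 of 497, 4594 of 6250 and 4521 of 7126 cells, and in 5.63%, 9.23% and 7.47% of them after thinning to 500 UMIs (macrophage-like cells 0.470% at Day 7 and 0.619% at Day 14, with median depths of 2538 and 3542 UMIs). At Day 14 epithelial cell-like cells followed with 59.2 CPM (52.4 to 66.6), then pericyte-like cells with 32.9 CPM (24.9 to 42.6) and endothelial cell-like cells with 14.4 CPM (8.77 to 22.2). The endothelial interval overlapped those of the classes below it.

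Each fibroblast-like cluster carried *Egfr*, and the *Pi16*-containing clusters 11 and 7 had the most, with 280 and 252 CPM over all libraries, followed by cluster 16 (*Gdf10*, 211 CPM). Lower levels were seen in cluster 14 (160 CPM), cluster 0 (143 CPM) and cluster 9 (*Igfbp2*, *Gal*; 82.0 CPM). Within single clusters *Egfr* was at 145 and 178 CPM in cluster 14 at Days 3 and 7, 262 and 237 CPM in cluster 7 and 162 and 142 CPM in cluster 0 at Days 7 and 14. Cluster 11 was instead higher at Day 14, with 251 and 320 CPM (log2 ratio of 0.35, 0.25 to 0.45). Counting error did not tell these libraries apart in cluster 13 (0.16, -0.27 to 0.60) or cluster 16 (0.11, -0.08 to 0.29). In cluster 13, whose cells were shallow (median 1189 UMIs), *Egfr* was at 37.9 CPM at Day 3 and 98.9 CPM at Day 7. Among epithelial sub-clusters, over all libraries, the *Lhx2*- and *Lgr5*-containing one had 121 CPM, basal keratinocyte-like cells 67.3 CPM and suprabasal keratinocyte-like cells 38.8 CPM.

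In macrophage-like cells *Egfr* was at 0.985, 6.82 and 8.29 CPM, from 12, 184 and 103 UMIs, with a log2 ratio of 2.79 (1.95 to 3.77) from Day 3 to Day 7. These levels were 0.777%, 3.71% and 5.49% of those in fibroblast-like cells. The summed level of the 8 fibroblast markers, all of them detected in macrophage-like cells, was 299, 2823 and 4046 CPM there and 50679, 83321 and 109342 CPM in fibroblast-like cells, or 0.591%, 3.39% and 3.70%. These marker levels moved with the *Egfr* ratio, and their part in it was not tested. In neutrophil-like cells of Day 7 *Egfr* was at 8.71% of the fibroblast level, beside 9.37% for the fibroblast markers. In epithelial cell-like cells of Day 14 it was at 39.2%, beside 4.26% for the markers.

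*Erbb2* (chr11:98412470-98437716), the receptor without a ligand, had 96.1%, 90.6% and 59.97% of its UMIs in fibroblast-like cells, beside 56.0%, 63.9% and 73.0% of all UMIs. Its level there was 10.1 CPM (8.77 to 11.6), 9.12 CPM (8.40 to 9.89) and 5.97 CPM (5.41 to 6.56), so that the earlier libraries overlapped and the Day 14 library was lower (log2 ratio to Day 7 of -0.61, -0.80 to -0.43). Epithelial cell-like cells had 42.9 CPM (37.2 to 49.3) at Day 14, the highest class of that library. Over all libraries it was at 53.7 CPM in suprabasal and 33.1 CPM in basal keratinocyte-like cells. Pericyte-like cells (13.1 CPM) and endothelial cell-like cells (12.4 CPM) overlapped at Day 7. Over all cells *Erbb2* was slightly higher in the Day 14 than in the Day 7 library (0.17, 0.02 to 0.33), but it was lower (-0.27) without the epithelial cell-like cells and cluster 28.

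*Erbb3* (chr10:128567523-128589652), the neuregulin receptor, was sparse until Day 14, with 29, 131 and 633 UMIs. At Day 14 epithelial cell-like cells held 62.9% of these and cluster 28 held 21.96%, at 85.04 CPM (76.9 to 93.8) and 230 CPM (194 to 272). The 49 epithelial cell-like cells of Day 7 were already at 56.1 CPM, from 23 UMIs (log2 ratio of Day 14 to Day 7 of 0.60, -0.01 to 1.27). In that library 7 melanocyte-like cells were at 511 CPM, from 15 UMIs. Over all libraries *Erbb3* was found in suprabasal (118 CPM) and basal (74.0 CPM) keratinocyte-like cells, in Schwann cell-like cells (281 CPM, 62.5% of cells with a UMI) and in melanocyte-like cells (254 CPM, 65.9% of cells). In fibroblast-like cells it did not exceed 0.676 CPM in any library. Among the immune classes dendritic cell-like cells had 3.80, 5.24 and 3.42 CPM with overlapping intervals, and cluster 29, led by the plasmacytoid dendritic cell gene *Siglech*, was at 54.7 CPM over all libraries. *Erbb4*, the other neuregulin receptor, had 1 UMI in all cells.

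Within fibroblast-like cells 6 members could be assessed from Day 3 to Day 7 and 1 was past the fold (*Nrg1*), beside 19.6% of 13012 genes. This count was higher under some other settings, given in the last section. From Day 7 to Day 14, 2 of 8 were past the fold, both lower (*Ereg* and *Nrg1*), beside 14.9% of 13879 genes. The members' median log2 ratios were 0.19 and 0.05, against -0.11 and -0.18 over all genes. Within macrophage-like cells 4 of 6 members were past the fold from Day 3 to Day 7, beside 13.6% of 11115 genes, with *Egfr* higher and *Nrg1*, *Areg* and *Ereg* lower (*Ereg*, log2 ratio of -1.65, -2.05 to -1.25). From Day 7 to Day 14, 2 of 6 were past it, beside 9.35% of 11361 genes, with *Areg* higher and *Nrg1* lower. The medians were -0.66 and 0.45, against -0.02 and -0.13. These are values of the whole class. From Day 3 to Day 7 *Areg* was not lower within macrophage-like clusters 1 and 2. *Ereg* was lower in cluster 1 and did not differ beyond counting error in cluster 2. The fibroblast markers moved with the *Egfr* ratio, as given above, and their part in it was not tested.

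**Figure D5:**
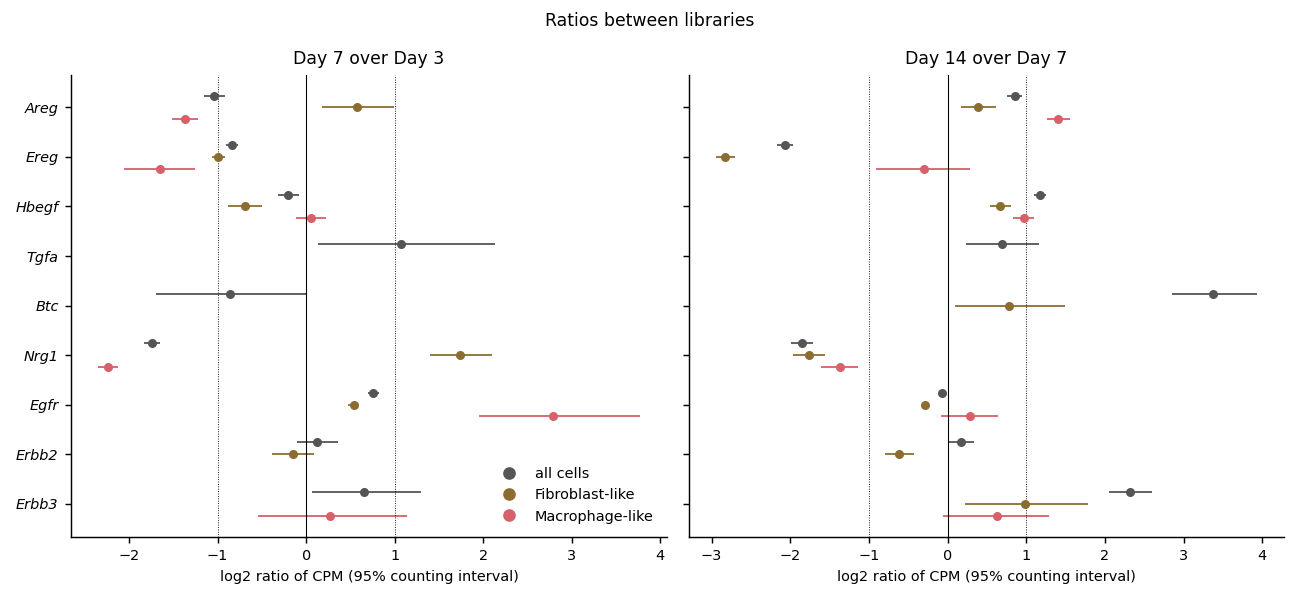
Log2 ratio of CPM between libraries with its 95% counting interval, for all cells, fibroblast-like and macrophage-like cells; dotted lines mark 2-fold and genes under 50 UMIs over both libraries are not drawn. From Day 3 to Day 7 *Nrg1* and *Areg* lie on opposite sides of 0 in fibroblast-like and macrophage-like cells, and from Day 7 to Day 14 *Nrg1* is below 0 in both.

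Of 23 further genes of the pathway, 1 of 20 assessed was past the fold over all cells from Day 3 to Day 7, beside 18.2% of all genes. It was *Lrig3*, which encodes a membrane protein related to the ERBB inhibitor LRIG1 (8.69 and 23.4 CPM). In the later comparison 5 of 21 were past it, beside 17.9% of all genes, a share near that background. Higher at Day 14 were the ligands *Epgn* (0.687 and 2.09 CPM) and *Nrg2* (0.328 and 1.17 CPM) and the signalling inhibitors *Spry1* (5.51 and 18.9 CPM) and *Spry4* (3.54 and 7.84 CPM), and lower was *Dusp6*, the ERK phosphatase (43.1 and 20.7 CPM). *Epgn* had 181 of its 203 Day 14 UMIs in epithelial cell-like cells, and *Nrg2* had 69 of 114 in cluster 19, led by *Prlr*, *Wif1* and *Bmp4*.

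In fibroblast-like cells *Lrig3* was higher (14.8 and 35.0 CPM) and *Spry2*, another Sprouty inhibitor, lower (106 and 49.3 CPM) at Day 7 than at Day 3, out of 17 assessed and beside 19.6% of all genes. *Spry1* (5.09 and 17.6 CPM) and *Spry4* (0.872 and 2.79 CPM) were higher at Day 14 than at Day 7, also out of 17 and beside 14.9% of all genes. In macrophage-like cells 4 of 15 were past the fold in each comparison, beside 13.6% and 9.35% of all genes. From Day 3 to Day 7 *Lrig3* was higher, and *Errfi1*, an inhibitor of the EGFR kinase (278 and 102 CPM), the adaptor *Gab1* (131 and 62.9 CPM) and *Spry2* (31.3 and 14.9 CPM) were lower. The summed fibroblast markers in macrophage-like cells were also higher at Day 7 (299 and 2823 CPM), and their part in the *Lrig3* ratio was not tested. In the later comparison *Rhbdf1*, which encodes an iRhom that carries ADAM17 to the cell surface (2.37 and 5.48 CPM), and *Spry1* were higher, and *Dusp6* (130 and 43.6 CPM) and *Spry2* were lower. The sheddase *Adam17* was at 211, 143 and 111 CPM in macrophage-like cells and at 62.1, 59.0 and 55.1 CPM in fibroblast-like cells, and it was past the fold in neither class.

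For each member with at least 200 UMIs, the 3 genes with the most similar level over the 18 combinations of class and library with at least 50 cells were listed among 13388 candidates, by Pearson's r of log2(CPM + 1). The nearest to *Egfr* were *Pdzrn3* (0.97), *Epb41l3* (0.96) and *Fzd2* (0.96), and the nearest to *Erbb2* were *Adgra3* (0.97), *Kank1* (0.95) and *Il17rc* (0.95). For *Nrg1* they were *Mfsd7a* (0.94), *Slc27a1* (0.88) and *Cybc1* (0.87). They were for *Areg* *Rasgrp1* (0.88), *Wdyhv1* (0.87) and *Gna15* (0.86), and for *Ereg* *Megf9* (0.85), *Tmem43* (0.84) and *Gldc* (0.84). For *Hbegf* they were *Abcc5* (0.85), *Mars2* (0.84) and *Calm2* (0.84). They were for *Erbb3* *Scel* (0.92), *Msmo1* (0.91) and *Cdcp1* (0.91), and for *Btc* *Mal2* (0.98) and *Tmem56* (0.97). The combinations share libraries and depth, so these values describe likeness only. Cluster 28 was not among them. In these combinations *Btc* was at most 1.07 CPM except in epithelial cell-like cells of Day 14 (23.1 CPM), where 1 cell held 51.9% of the UMIs. Its values of r thus rest mainly on that 1 combination. *Tgfa*, with 180 UMIs, was not included.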

How the data were processed

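Counts were deposited by the authors as 1 table of whole-number UMI counts per gene and barcode for each library, made with Cell Ranger 6.0.0 on mm10 according to the submitters' processing notes; the annotation is not given in the sources used here. Cells with at least 200 genes and 500 UMIs and at most 10% mitochondrial UMIs were kept, and called doublets (2.07% to 9.17% per library, scored by nearness to simulated doublets) were removed. The 3 libraries were clustered together without the genes described (2000 variable genes, 30 principal components, 15 neighbours, Leiden resolution 1; 147 genes were never used), and clusters were named from marker lists. Levels are CPM of the UMIs summed per class and library. The 95% intervals are exact Poisson for levels, conditional binomial for ratios and Clopper-Pearson for shares. A class without a UMI was given the limit of 3 counts. No test or p-value was computed, since each day had 1 library. Named genes are all members, the 23 pathway genes, the 3 genes most like each member, and leading genes of clusters; some of these are not reported here. The members and lists were chosen with earlier results of these data known. The rule for naming a class (a second class under 0.9 of the first, at least 3 markers) was adjusted after clusters and the members' values in them had been seen, and the sub-cluster rule, the NK cell list in the lymphoid set and the immediate-early list were added after the data had been seen. Loci are from GENCODE on GRCm38, and promoters from RefSeq. Only the intervals of the ratios were tested on simulated data, as Poisson counts, which leave out the spread between cells. Calculations used Python 3.11.15, numpy 2.4.6, scipy 1.17.1, pandas 2.3.3, scikit-learn 1.9.0, igraph 0.11.9 and leidenalg 0.10.2. Alternatives were other limits for cells, doublets kept, other clustering, other scaling, and other thresholds.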

Additional observations from a re-analysis of the deposited data

Results flagged for a closer look

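From Day 3 to Day 7, *Areg* and *Nrg1* went in opposite directions in the main classes. The log2 ratio of *Areg* was 0.58 in fibroblast-like cells and -1.37 in macrophage-like cells, and that of *Nrg1* was 1.74 in fibroblast-like cells and -2.24 in macrophage-like cells. With 1 library per day these differences were not tested. The macrophage-like *Areg* value is that of the whole class. Within its clusters 2 and 1 the log2 ratio of *Areg* was 0.56 (0.29 to 0.82) and 0.82 (-0.09 to 1.91). The *Areg* value in fibroblast-like cells rested on 61 UMIs at Day 3, of which 41.0% lay in 1 cell, and it was 1.05 when called doublets were kept.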

How the results depend on the processing

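No paired analysis was possible because each day has 1 library. Of 493 values of the 53 ratios under other settings, 424 kept their direction within the main interval, 63 moved outside it and 6 were reversed. For all cells, *Hbegf* from Day 3 to Day 7 was 0.049 on the log2 scale without the 50 most abundant genes and 0.18 as the mean of each cell's CPM, *Btc* in the same comparison was 1.55 as the mean of each cell's CPM, *Egfr* from Day 7 to Day 14 was 0.064 with median-of-ratios scaling and 0.40 as the mean of each cell's CPM, and *Erbb2* was -0.27 without epithelial cell-like cells and cluster 28. The count of members past the fold over all cells from Day 3 to Day 7 (3) was 6 as the mean of each cell's CPM and 1 at 3-fold, and that from Day 7 to Day 14 (5) was 3 without epithelial cell-like cells and cluster 28. In fibroblast-like cells from Day 3 to Day 7 (1) it was 2 at 5% or 20% mitochondrial UMIs, with each library clustered alone, as the mean of each cell's CPM or at 20 UMIs, and 4 with doublets kept. In macrophage-like cells from Day 7 to Day 14 (2) it was 0 at 3-fold. The causes were not tested. The class with the highest level was the same in all 9 settings for 15 of 27 combinations of member and library; epithelial cell-like cells of Day 7, 49 in the main setting, enter this order wherever they reach 50. *Tgfa* had 11 and 66 UMIs and *Btc* 21 and 33 UMIs at Days 3 and 7, which limits the precision of their ratios, and counting intervals leave out the spread between animals.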
